A study of Mus musculus with 6 samples.

Results

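Tetraspanins are small proteins that cross the membrane several times and gather integrins, immunoglobulin-family proteins, proteases and one another into patches of the cell surface known as tetraspanin-enriched microdomains. Members such as Cd9, Cd63 and Cd81 are also carried on extracellular vesicles and serve as markers of them. In epithelia the family is known for its part in adhesion to laminin, in cell migration and in the sorting of membrane proteins. The genes described here are Tspan1, Tspan3, Tspan8, Tspan13, Cd9, Cd63, Cd81, Cd82 and Cd151, 9 of the 25273 mouse genes that had a value. They were chosen by name, with earlier results of these data known. Each was found by matching the position and spliced length of the deposited transcripts to annotated mouse genes. Each gene's level is the sum of FPKM (fragments scaled to the length of the transcript and the depth of the library) over its transcripts.

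RNA was sequenced from prostate basal cells, the epithelial layer that rests on the basement membrane, in 3 libraries from the proximal ducts, near the urethra, and 3 libraries from the distal ducts, toward the gland tips. All 6 came from C57BL/6 mice aged 8 to 12 weeks, with no transgene, treatment or mutation named in the labels. The protocols describe dissociation and antibody sorting, and separately a culture of primary stromal cells, but give neither the antibodies and gates for basal cells nor whether those cells were cultured. Nothing in the labels states that replicate libraries are from different mice, so the p-values here reflect library-to-library spread, part or all of which may be technical.

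Depth, derived from the widths of the deposited intervals, was 22000000 to 26900000 fragments in the proximal libraries and 21600000 to 27700000 in the distal libraries. All 10 basal markers listed were measured in both regions, and their summed level was 8834 to 9105 FPKM in proximal libraries and 7628 to 9341 FPKM in distal libraries. Of the 10, Krt5, Krt15, Col17a1, Lamb3 and Lama3 were higher in proximal libraries by the test used for the tetraspanins, and none was lower. Over all tested genes 4.52% were higher. The log2 fold change was positive for 7 of the 10. It was -0.29 for Krt14, -0.38 for Krt17 and -0.70 for Trp63 (limma adjusted p = 0.365, 0.171 and 0.170). Trp63 passed as lower without distal library 1 (0.0123). The Krt5 call was lost without distal library 2 (0.106), distal library 3 (0.0963), proximal library 2 (0.0856) or proximal library 3 (0.0610). The part of these differences in the tetraspanin values was not tested. Markers of secretory luminal cells were present too, at a summed 2769 to 2931 FPKM in proximal libraries and 2367 to 3182 FPKM in distal libraries. In sorted bulk RNA of this kind, fewer cells of a type and less RNA per cell cannot be told apart. The libraries numbered 1 stood apart from the other 4 on the second principal component, which held 25.4% of the variance.

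The stretches upstream of 3 of the genes are shown because they carry the contrast of these data: Tspan8 and Tspan1, which differed most between the regions, and Cd9, the most abundant member, which passed no test. Each line gives the 250 bases before the RefSeq start on GRCm38.p6, 5′ to 3′ on the gene's own strand, with capitals marking GGGCGG, the core of the binding motif of Sp-family factors. They lie at chr10:115817034-115817283 (plus strand) for Tspan8, chr4:116167599-116167848 (minus strand) for Tspan1 and chr6:125494761-125495010 (minus strand) for Cd9.
Tspan8: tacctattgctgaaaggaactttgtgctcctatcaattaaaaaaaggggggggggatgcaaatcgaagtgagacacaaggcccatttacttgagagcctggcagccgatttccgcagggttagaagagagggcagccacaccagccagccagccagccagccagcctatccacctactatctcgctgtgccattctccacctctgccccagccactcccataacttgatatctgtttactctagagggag
Tspan1: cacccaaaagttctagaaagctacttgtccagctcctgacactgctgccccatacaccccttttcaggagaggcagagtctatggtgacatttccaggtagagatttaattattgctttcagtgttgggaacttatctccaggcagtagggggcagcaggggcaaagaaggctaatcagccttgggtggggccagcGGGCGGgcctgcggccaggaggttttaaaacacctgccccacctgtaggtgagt
Cd9: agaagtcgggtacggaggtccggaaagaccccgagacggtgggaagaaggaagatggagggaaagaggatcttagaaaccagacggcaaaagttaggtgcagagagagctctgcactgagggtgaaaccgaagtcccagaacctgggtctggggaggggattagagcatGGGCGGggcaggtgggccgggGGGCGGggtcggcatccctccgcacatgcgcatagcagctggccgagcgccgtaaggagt
All 9 genes had at least 1 promoter in the RefSeq table, 13 in all, each covering 250 bases before to 50 after the start. GGGCGG was searched on both strands. It occurred in 7 of these 13 promoters, from 6 of the 9 genes, and in 35.7% of the 32851 promoters in the table. Tspan1 held it once and Cd9 held it in 2 places, whereas those letters were not in the Tspan8 window. Tspan8 had 5 CG dinucleotides, Tspan1 had 6 and Cd9 had 18, against a median of 7 over all promoters.

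Of the 9 tetraspanins, 4 were higher in proximal than in distal basal cells, none was lower and 5 did not pass the test. They were Tspan8, Tspan1, Cd82 and Tspan13. The test was limma on log2(FPKM + 1) over all 10255 genes that averaged 1 FPKM or more, and a call required a Benjamini-Hochberg adjusted p under 0.05. Over all tested genes 4.52% were higher by this rule, and 7.02% were called in either direction. At an unadjusted p under 0.05, 5 of the 9 passed, and so did 24.0% of all tested genes. The median log2 fold change of the 9 was 0.49, against -0.01 over all tested genes. In 5 of the 9 all 3 proximal libraries lay above all 3 distal libraries, which was so for 15.8% of tested genes (28.8% were separated in either direction). Because the 9 were chosen with earlier results of these data known, these shares give no independent test of the set.

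**Figure D1:**
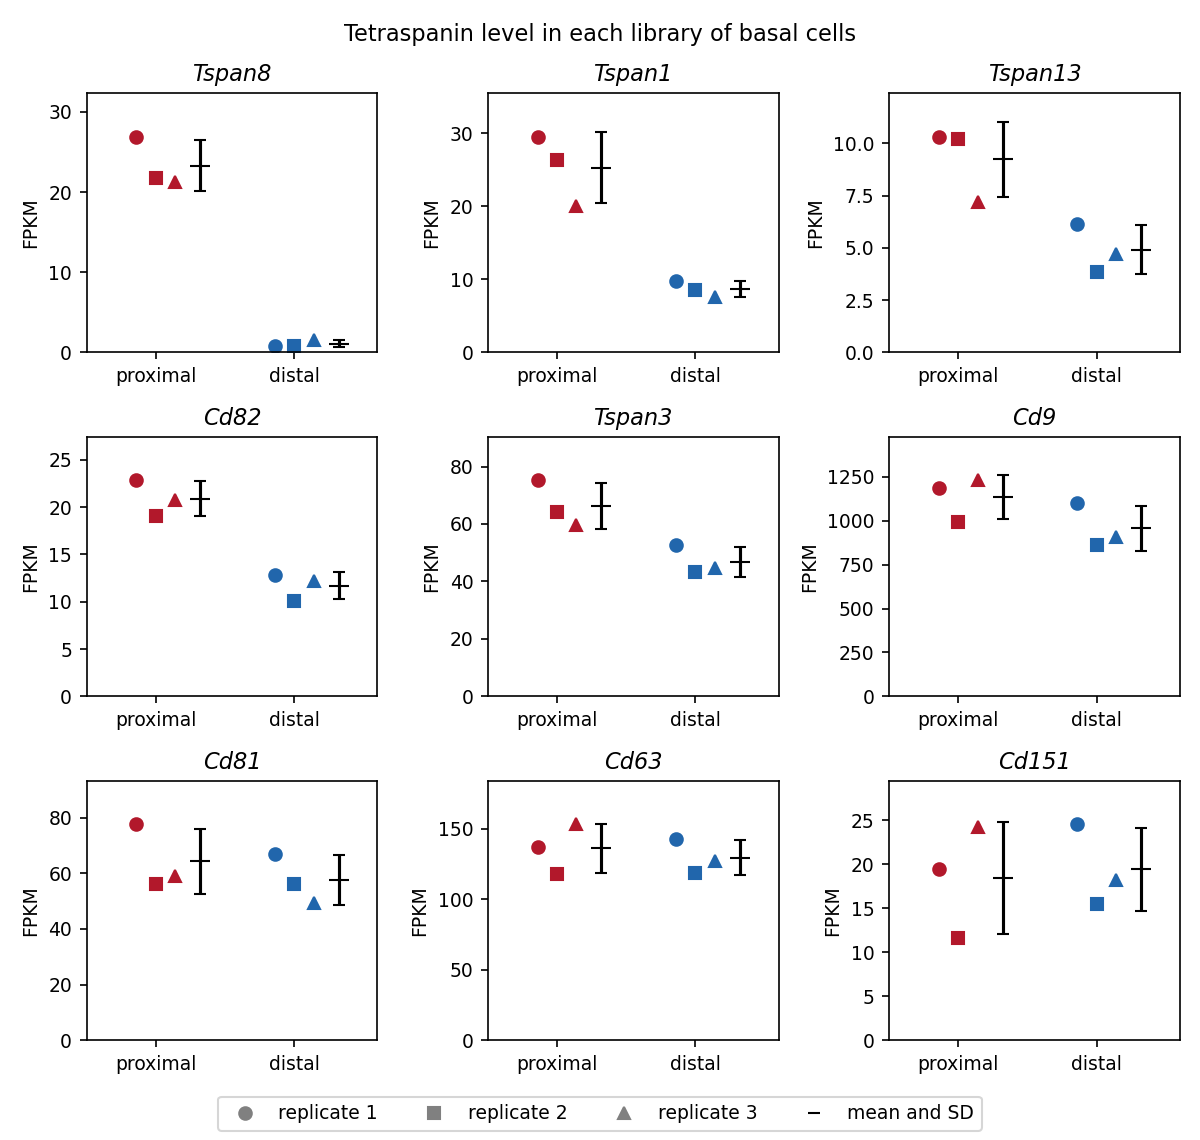
Level of each of the 9 tetraspanins in FPKM, with 1 point per library, proximal libraries left of distal libraries, and bars for the mean and SD of 3 libraries. The groups are fully separated for Tspan8, Tspan1, Tspan13, Cd82 and Tspan3, and overlap for Cd9, Cd81, Cd63 and Cd151.

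Tspan8, a tetraspanin of epithelia whose human counterpart was first described as a carcinoma antigen, differed most. It reached 26.9, 21.7 and 21.2 FPKM in proximal libraries 1, 2 and 3, against 0.846, 0.865 and 1.59 FPKM in distal libraries 1, 2 and 3. The proximal libraries lay close together and the groups were far apart. The means were 23.3 ± 3.15 FPKM in proximal cells and 1.10 ± 0.423 FPKM in distal cells (SD, n = 3 each), a ratio of 21.2. The added 1 compresses the change of weakly expressed genes, and on that log2(FPKM + 1) scale the difference was 3.54 ± 0.17 (SE; 95% interval 3.14 to 3.94; limma adjusted p = 5.2e-05). By the size of this difference it ranked 7 of the 10255 tested genes. The deposited values correspond to about 691 to 962 fragments in proximal libraries and 25 to 54 in distal libraries. The gene lies on chromosome 10, at 115816832 to 115849893 on the plus strand of mm10, and the annotated gene 4930422I22Rik overlaps it on the other strand. The protocols do not state whether the kit keeps strand.

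Tspan1, an epithelial tetraspanin on chromosome 4 (116161869 to 116167601, minus strand), had 29.5, 26.4 and 19.98 FPKM in proximal libraries and 9.79, 8.55 and 7.64 FPKM in distal libraries. The lowest proximal library lay well above the highest distal one. The means were 25.3 ± 4.85 FPKM in proximal cells and 8.66 ± 1.08 FPKM in distal cells (SD, n = 3 each), a ratio of 2.92. The log2 fold change was 1.43 ± 0.16 (limma adjusted p = 0.00266), a fold of 2.09 to 3.49 by its 95% interval.

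Cd82, also called KAI1 and known in human prostate cancer as a suppressor of metastasis, lies on chromosome 2 (93419111 to 93463140, minus strand). It had 22.8, 19.1 and 20.8 FPKM in proximal libraries and 12.8, 10.1 and 12.2 FPKM in distal libraries, with no overlap. Its log2 fold change was 0.79 ± 0.13 (limma adjusted p = 0.0109). Without distal library 2 the adjusted p was 0.0526.

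Tspan13 (chromosome 12, 36014557 to 36042500, minus strand) had 10.3, 10.2 and 7.17 FPKM in proximal libraries and 6.16, 3.86 and 4.72 FPKM in distal libraries. The groups did not overlap, but the lowest proximal and the highest distal library were close. The log2 fold change was 0.79 ± 0.19 (95% interval 0.35 to 1.23; limma adjusted p = 0.0468), just inside the threshold. The call was lost without distal library 2 (adjusted p = 0.177), distal library 3 (0.140), proximal library 1 (0.0810) or proximal library 2 (0.183), and also with no filter on low genes (0.0968), a filter at 5 FPKM (0.0536), quantile scaling (0.0558) or no variance trend (0.0504).

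Tspan3, a broadly expressed member on chromosome 9 (56131725 to 56165477, minus strand), had 75.1, 64.3 and 59.5 FPKM in proximal libraries and 52.7, 43.1 and 44.7 FPKM in distal libraries. The groups did not overlap, yet the difference of 0.49 ± 0.13 (log2; 95% interval 0.20 to 0.78) missed the threshold just outside it (limma adjusted p = 0.0581). It passed without distal library 1 (adjusted p = 0.0348).

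Cd9, which binds integrins and immunoglobulin-family partners and is needed on the mouse egg for fusion with sperm, was by far the most abundant of the 9. It lies on chromosome 6 (125460266 to 125494791, minus strand). Its level was 1188, 992 and 1230.1 FPKM in proximal libraries and 1103, 864 and 907 FPKM in distal libraries. The groups overlapped, since distal library 1 lay above proximal library 2. The log2 fold change was 0.25 ± 0.15 (limma adjusted p = 0.357), and its 95% interval spans a fold from 0.933 to 1.51, so a modest difference in either direction was not resolved.

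Cd63, a tetraspanin of late endosomes and vesicles on chromosome 10 (128900989 to 128912822, plus strand), had 137, 118 and 153 FPKM in proximal libraries and 143, 119 and 127 FPKM in distal libraries. Cd81, a close relative of Cd9 that lies on chromosome 7 (143052739 to 143067934, plus strand), had 77.7, 56.1 and 59.2 FPKM in proximal libraries and 67.1, 56.2 and 49.3 FPKM in distal libraries. Both overlapped between the regions, with fold intervals of 0.853 to 1.29 for Cd63 (limma adjusted p = 0.798) and 0.861 to 1.44 for Cd81 (adjusted p = 0.599).

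Cd151, which associates with the laminin-binding integrins and lies on chromosome 7 (141467392 to 141471473, plus strand), was the member whose log2 fold change was negative. It had 19.5, 11.6 and 24.2 FPKM in proximal libraries and 24.6, 15.4 and 18.3 FPKM in distal libraries. The spread within each region was wider than the difference between them, which was -0.11 ± 0.26 (log2; limma adjusted p = 0.853) with a fold interval of 0.609 to 1.42.

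**Figure D2:**
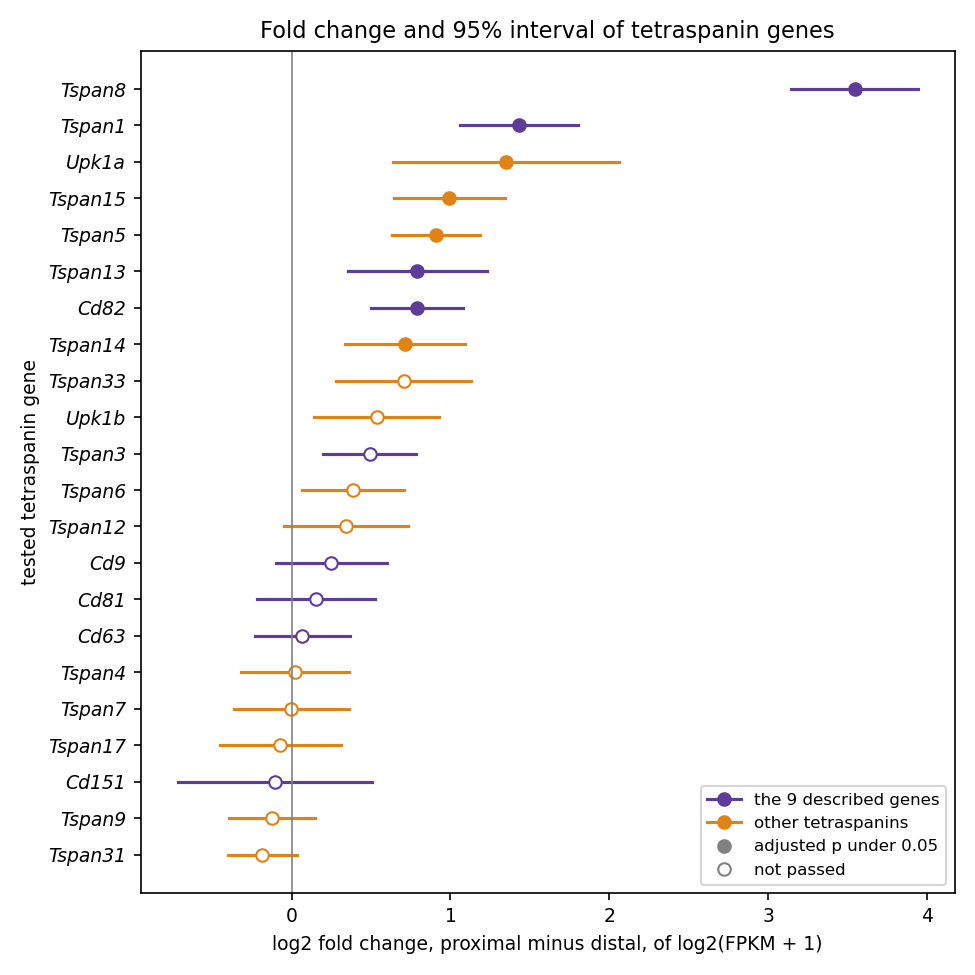
Log2 fold change, proximal over distal, on the log2(FPKM + 1) scale with its 95% interval for the 9 tetraspanins and the other tested members of the family. Tspan8, at 3.54, lies far from the rest, and no called member of either list has a negative value.

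Ordered by the mean of the 6 libraries, Cd9 came first at 1048 FPKM, then Cd63 at 133, Cd81 at 60.9 and Tspan3 at 56.6 FPKM. Below these were Cd151 at 18.9, Tspan1 at 17.0, Cd82 at 16.3, Tspan8 at 12.2 and Tspan13 at 7.07 FPKM. The order of means differed by region. Tspan8, at 23.3 FPKM, lay above Cd82 and Cd151 in proximal libraries and, at 1.10 FPKM, came last in distal libraries, and Tspan3 lay above Cd81 in proximal libraries and below it in distal libraries. The ranges of neighbours in this order were separate between Cd9 and Cd63, between Cd63 and Cd81 and between Tspan3 and Cd151, and overlapped elsewhere. FPKM is scaled by transcript length, so these levels can be set beside each other. Cd9 alone made up 75.7 ± 1.21% of the summed FPKM of the 9 in proximal libraries and 77.4 ± 0.29% in distal libraries (SD, n = 3 each). Tspan8 made up 1.56 ± 0.198% of that sum in proximal libraries and 0.0907 ± 0.0397% in distal libraries. In both regions the library numbered 1 had the highest level of Tspan1, Tspan3, Tspan13, Cd81 and Cd82, 5 of the 9. Without both libraries numbered 1, Tspan8 still differed by 3.35 on the log2 scale (limma adjusted p = 0.000917), and 5 of the 9 passed. Calls rose over all genes in that setting, to 2209 of the 10255 tested, against 720 with all libraries.

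The deposited files list 23 transcripts of these genes, of which 9 were at 0 in all libraries and 14 were tested. Of the 14, 3 were called, all higher in proximal cells (of all tested transcripts, 2.16% were called higher and 3.06% in either direction), and they belong to Tspan8 and Tspan1. In Tspan8 the 3 listed transcripts share 1 span and differ in spliced length. The transcript uc007hbo.2 of 1522 bases had 14.7, 9.77 and 11.9 FPKM in proximal libraries and was listed at 0 in all 3 distal libraries (limma adjusted p = 0.000442), so it reached the tested set through its proximal level alone. The transcript uc007hbn.2 of 1380 bases had 5.37, 12.0 and 5.11 FPKM in proximal libraries and 0.846, 0.865 and 0 FPKM in distal libraries (adjusted p = 0.0312). It was below 1 FPKM in every distal library, so it too was tested only through its proximal level. The third, uc007hbm.2 of 1416 bases, was at 0 in proximal library 2 and in distal libraries 1 and 2, and did not pass (adjusted p = 0.446). The call of uc007hbn.2 was lost whichever library was left out (adjusted p 0.0552 to 0.109), whereas uc007hbo.2, with its distal libraries all at 0, stayed past the threshold. The single expressed Tspan1 transcript, uc008ugk.1, lost its call without distal library 2 (adjusted p = 0.0688), distal library 3 (0.0586) or proximal library 2 (0.0658). Cufflinks divides shared fragments between transcripts, so a value of 0 may reflect the estimate and not the RNA, and the split within a gene is less certain than its sum.

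**Figure D3:**
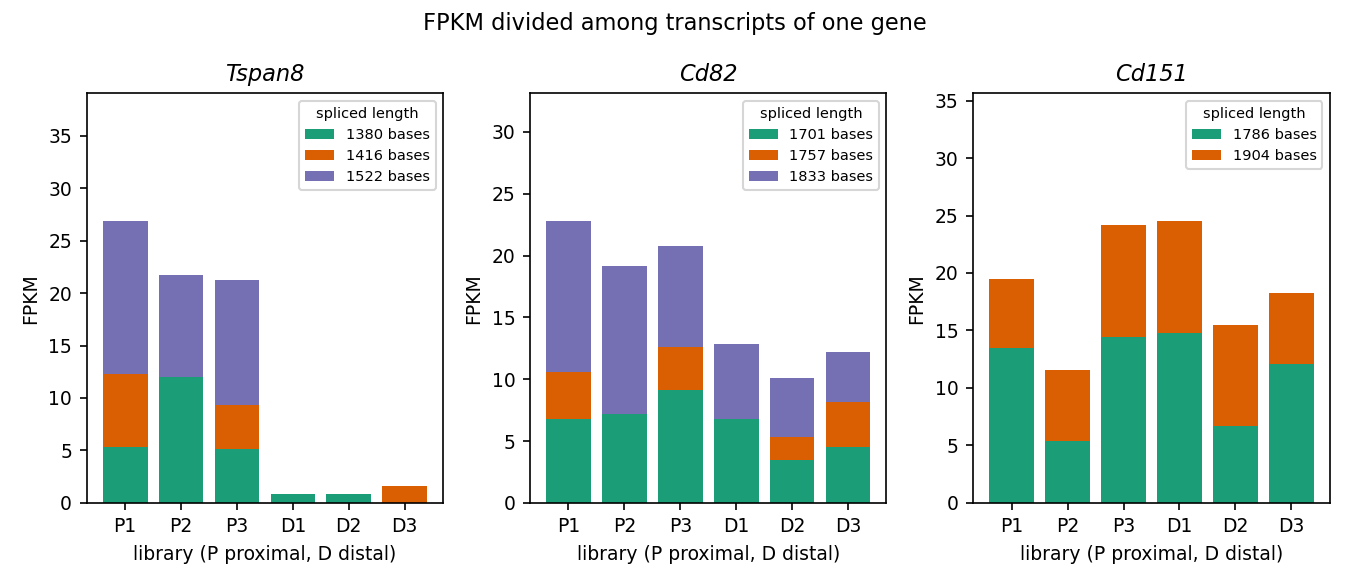
FPKM of the expressed transcripts of Tspan8, Cd82 and Cd151 in each library, stacked by transcript, with proximal libraries left of distal libraries. In distal libraries the small Tspan8 level sits in uc007hbn.2 in libraries 1 and 2 and in uc007hbm.2 in library 3.

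In Cd82 and Cd151 no single transcript passed. The Cd82 transcript of 1833 bases had 12.3, 11.9 and 8.20 FPKM in proximal libraries and 6.05, 4.73 and 4.05 FPKM in distal libraries (limma adjusted p = 0.0589), with no overlap. The 1701-base transcript of Cd82 overlapped between the regions (adjusted p = 0.248). Tspan13, Tspan3, Cd9, Cd81 and Cd63 each had 1 expressed transcript, so their gene level is the level of that transcript.

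The rest of the family was examined as 22 further tetraspanins, of which 13 were tested and 9 stayed below 1 FPKM in all libraries. Of the 13, 4 were higher in proximal cells (4.52% of all tested genes were) and none was lower. Among the 4, Upk1a was below 1 FPKM in every distal library and was tested only through its proximal level. The median log2 fold change of the 13 was 0.39, and 7 of them had an unadjusted p under 0.05, against 24.0% of all tested genes. Tspan5 averaged 28.7 ± 3.74 FPKM in proximal cells and 14.7 ± 0.844 FPKM in distal cells (log2 fold change 0.91 ± 0.12; limma adjusted p = 0.00492). Tspan15 averaged 3.26 ± 0.509 FPKM in proximal cells and 1.14 ± 0.212 FPKM in distal cells (0.99 ± 0.15; adjusted p = 0.00913). Tspan14 averaged 47.6 ± 6.55 FPKM in proximal cells and 28.7 ± 5.57 FPKM in distal cells (0.72 ± 0.16; adjusted p = 0.0402). These 3 belong to the TspanC8 group, which carries the protease Adam10 to the cell surface, a grouping made after the values were seen. The group has 6 genes, of which 5 were tested, and the other two tested, Tspan33 and Tspan17, did not pass (adjusted p = 0.0621 and 0.845). Adam10 itself averaged 17.5 ± 4.82 FPKM in proximal cells and 14.1 ± 0.610 FPKM in distal cells (adjusted p = 0.464), and passed without proximal library 1 (0.0411).

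Upk1a, a tetraspanin of the urothelial plaque, had 5.77, 2.34 and 2.03 FPKM in proximal libraries and 0.980, 0.399 and 0.498 FPKM in distal libraries (limma adjusted p = 0.0398). Its relative Upk1b, at 18.8 ± 4.87 FPKM in proximal cells and 12.4 ± 0.653 FPKM in distal cells, did not pass (adjusted p = 0.103), nor did Tspan33 at 2.73 ± 0.424 and 1.31 ± 0.487 FPKM in the same order (adjusted p = 0.0621). The log2 fold changes of Tspan6 and Tspan12 were 0.39 and 0.34, and those of Tspan4, Tspan7, Tspan17, Tspan9 and Tspan31 lay between -0.18 and 0.02. None of these 7 passed. The Tspan14 call was lost without distal library 1 (0.0544), distal library 2 (0.137), distal library 3 (0.0518), proximal library 2 (0.145) or proximal library 3 (0.134). The Upk1a call was lost without distal library 2 (0.153), distal library 3 (0.125), proximal library 2 (0.0934) or proximal library 3 (0.0527).

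Partners that tetraspanins hold at the cell surface were listed as 26 genes, 25 of them tested. Of these, 3 were higher and 2 lower in proximal cells, 20 did not pass, and the median log2 fold change was 0.23. Over all tested genes 4.52% were higher and 2.5% were lower. Of the 25 partners, 11 had an unadjusted p under 0.05, against 24.0% of all tested genes. Itgav, an integrin subunit that binds vitronectin, averaged 141 ± 12.8 FPKM in proximal cells and 83.8 ± 4.00 FPKM in distal cells (limma adjusted p = 0.0069). Met, the receptor of hepatocyte growth factor, averaged 48.4 ± 3.14 FPKM in proximal cells and 26.8 ± 1.63 FPKM in distal cells (adjusted p = 0.00348). Ceacam1, an adhesion molecule, averaged 484 ± 38.8 FPKM in proximal cells and 303 ± 29.6 FPKM in distal cells (adjusted p = 0.0170), and lost its call without distal library 2 (0.0971), proximal library 2 (0.0878) or proximal library 3 (0.0728). All 3 were separate between the regions.

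The lower partners were Tgfa, a growth factor precursor that binds Egfr, and Cldn1, a tight junction claudin. Tgfa averaged 69.8 ± 9.24 FPKM in proximal cells and 112 ± 11.8 FPKM in distal cells (limma adjusted p = 0.0238). Cldn1 averaged 396 ± 41.6 FPKM in proximal cells and 564 ± 13.0 FPKM in distal cells (adjusted p = 0.0402). The Tgfa call was lost without distal library 2 (0.104), distal library 3 (0.0517), proximal library 2 (0.0640) or proximal library 3 (0.0577), and the Cldn1 call was lost whichever library was left out (0.0529 to 0.147).

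The laminin-binding integrins, the best known partners of Cd151, did not pass. Itga3 averaged 304 ± 61.5 FPKM in proximal cells and 214 ± 11.4 FPKM in distal cells (limma adjusted p = 0.113), and Itga6 averaged 124 ± 5.34 FPKM in proximal cells and 99.5 ± 4.47 FPKM in distal cells (adjusted p = 0.0911). Itga3 passed without proximal library 1 (0.0159), and both passed without both libraries numbered 1 (0.00988 for Itga3 and 0.0406 for Itga6). Their beta partners Itgb1 and Itgb4 had log2 fold changes of 0.07 and 0.23 (adjusted p = 0.780 and 0.308). Epcam and Cldn7, which bind Tspan8 and Cd9 in carcinoma cells, had log2 fold changes of 0.37 and -0.21 (adjusted p = 0.114 and 0.433). Igsf8 and Ptgfrn, the immunoglobulin-family partners of Cd9 and Cd81, had 0.12 and 0.40 (adjusted p = 0.546 and 0.133), and Hbegf, whose human precursor binds CD9, had -0.38 (adjusted p = 0.499).

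Genes of endosomes and extracellular vesicles, where Cd63 acts, gave no call with limma among 23 tested. Of the 23, 7 had an unadjusted p under 0.05, as did 24.0% of all tested genes, and their median log2 fold change was 0.07. Sdcbp, the syntenin adaptor that binds Cd63, averaged 288 ± 12.4 FPKM in proximal cells and 285 ± 14.4 FPKM in distal cells. Of 5 tested enzymes that palmitoylate proteins, none was called by limma and 1 had an unadjusted p under 0.05. No other test was run on these lists.

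**Figure D4:**
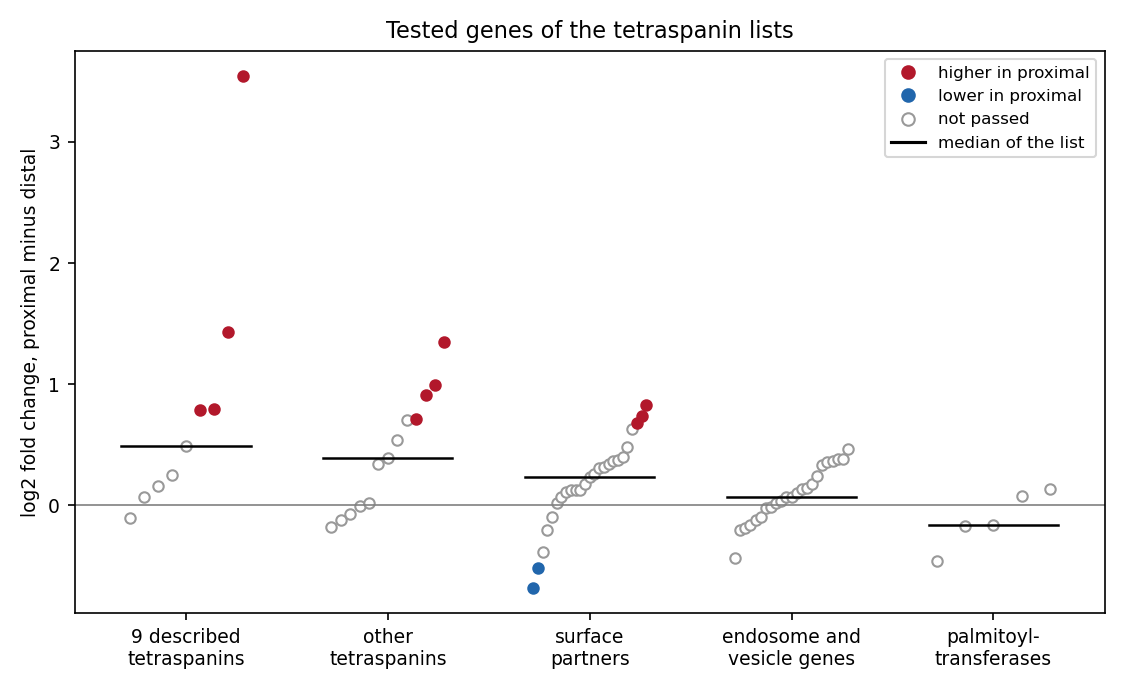
Log2 fold change, proximal over distal, of each tested gene in the lists of tetraspanins, their surface partners, vesicle genes and palmitoylation enzymes, with filled points for called genes and a line at each list's median. The medians are 0.49 for the 9 tetraspanins, 0.39 for the other tetraspanins, 0.23 for surface partners, 0.07 for vesicle genes and -0.17 for palmitoylation enzymes.

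Markers of several other cell types differed between the regions, and their part in the tetraspanin values was not tested. Beside each count below, 4.52% of all tested genes were higher in proximal libraries and 2.5% were lower. Of 12 markers of proximal luminal cells, 10 were higher in proximal basal libraries, none was lower and none was at 0 in all 6 libraries. Ppp1r1b was at 0 in distal library 3. Their summed level was 2681 to 2954 FPKM in proximal libraries and 1143 to 1254 FPKM in distal libraries. Endothelial markers were higher in 4 of 5 tested, summing to 16.8 to 23.0 FPKM in proximal libraries and 2.01 to 10.4 FPKM in distal libraries. Of the genes called higher, Cdh5 and Kdr here, Pdgfrb of the fibroblast list, Msmb of the secretory luminal list and Ppp1r1b of the proximal luminal list were below 1 FPKM in every distal library and were tested through their proximal level. Of 6 urothelial markers, which include Upk1a and Upk1b, 3 were tested, with 1 higher and 1 lower. Their summed level was 18.5 to 32.5 FPKM in proximal libraries and 16.8 to 19.5 FPKM in distal libraries, and Upk3a was at 0 in all 6. Seminal vesicle genes summed to 0.568, 171 and 480.1 FPKM in proximal libraries 1, 2 and 3 and 0.498 to 1.67 FPKM in distal libraries. Among the proximal libraries, library 1 had the least of these and the highest Tspan8, and a relation between them was not tested. Fibroblast markers were higher in 4 of 6 tested. Most of their sum, 682 to 752 FPKM in proximal libraries and 767 to 811 FPKM in distal libraries, was Dcn, which did not pass, and the rest summed to 41.0 to 45.3 FPKM in proximal libraries and 21.3 to 29.5 FPKM in distal libraries. Nerve and glia markers were higher in 2 of 3 tested and summed to 18.1 to 23.6 FPKM in proximal libraries and 14.03 to 16.5 FPKM in distal libraries. Of 11 tested secretory luminal markers, 1 was higher and 2 were lower. Dissociation and immediate early genes ran the other way, at 4720.3 to 6130.2 FPKM in proximal libraries and 6169 to 14309 FPKM in distal libraries, with 2 of 12 called lower. Smooth muscle markers had no call among 6 tested, at 206 to 249 FPKM in proximal libraries and 204 to 256 FPKM in distal libraries. Leukocyte markers had none among 2 tested, at 6.52 to 11.9 and 8.96 to 13.4 FPKM in the same order. No neuroendocrine marker reached 1 FPKM in any library, and none was tested.

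**Figure D5:**
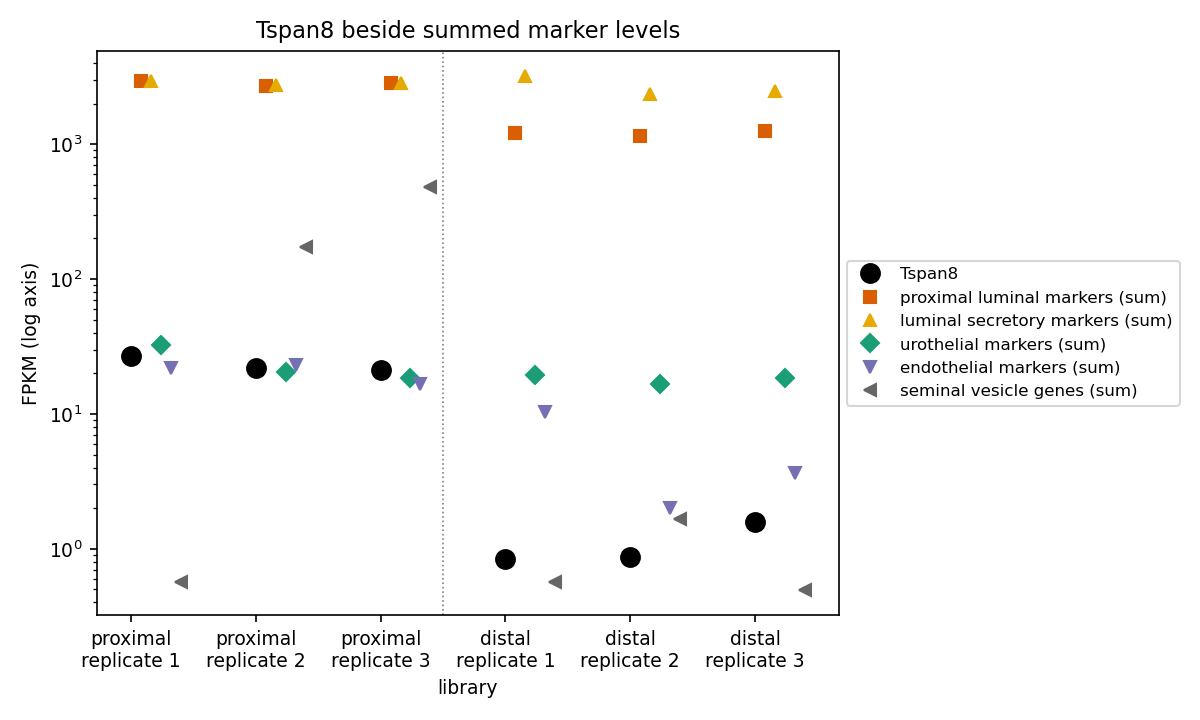
Tspan8 in FPKM beside the summed level of marker lists in each library, on a log axis, with proximal libraries left of distal libraries. Tspan8 and the proximal luminal sum are both higher in every proximal library, whereas the seminal vesicle sum varies within the proximal group from 0.568 to 480.1 FPKM.

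The genes whose pattern over the 6 libraries was most like that of Tspan8 were Kcnn4, Slc14a1, Slc25a48, Krt4 and Grp. Likeness was the root mean square difference of log2(FPKM + 1) centred on each gene's own mean, among 6401 genes that averaged 5 FPKM or more, and was 0.29 to 0.35. With 3 libraries per group, this measure mostly picks genes with a similar fold change. It therefore restates the contrast between the regions and adds no separate evidence. Kcnn4, a calcium-activated potassium channel, averaged 216 ± 11.1 FPKM in proximal cells and 13.4 ± 1.59 FPKM in distal cells. Krt4, a keratin of stratified mucosa, averaged 18.2 ± 4.79 FPKM in proximal cells and 1.46 ± 0.236 FPKM in distal cells. Grp, the precursor of gastrin-releasing peptide, averaged 16.4 ± 8.46 FPKM in proximal cells and 0.133 ± 0.0477 FPKM in distal cells. Slc14a1 averaged 19.5 ± 2.21 and 0.223 ± 0.0394 FPKM in the same order, and Slc25a48 averaged 10.5 ± 2.84 and 0.259 ± 0.126 FPKM. Slc14a1, Slc25a48 and Grp were below 1 FPKM in every distal library. These genes and Krt4 reached the mean of 5 FPKM only through their proximal level.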

How the data were processed

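Reads were processed by the authors with bcl2fastq 1.8.3, TopHat and Cufflinks on mm10, per the submitters' processing notes. The deposited files give FPKM, its interval and a status, for 63241 transcripts per library, per the file headers. They also give coverage per transcript, a signal not scaled to depth, per the file headers. The files hold no gene names, so transcripts were matched by span and spliced length to GENCODE M21, which assigned 53323 transcripts holding 93.9% of the FPKM. In a test on 2000 reference transcripts, a gene was found for 91.9%, and it was the true one in 99.7% of these.

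FPKM was summed per gene, used with no further scaling, and tested on log2(FPKM + 1) with limma 3.58.1 in R 4.3.3 (two-sided, lmFit and eBayes with trend). Adjustment was by Benjamini-Hochberg over 10255 genes averaging 1 FPKM or more. The procedure was tested on simulated data. Cufflinks splits fragments between transcripts, so no count test was run, and depth was derived from the intervals. An exact permutation test of 3 against 3 libraries cannot go below p = 0.1, so none is given. The 9 genes and the lists were chosen with earlier results of these data known. Genes named were all 9 members, all tested other tetraspanins, called partners, the best known partners and the 5 genes most like Tspan8. Alternatives were another pseudocount, filters, scaling, no variance trend, a replicate block, matching rules and leaving out libraries.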

Additional observations from a re-analysis of the deposited data

How the results depend on the processing

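Tspan8, Tspan1 and Tspan5 kept their call under every alternative run, as did Tspan15 apart from the filter at 5 FPKM, where it was not tested, and the log2 fold change of Tspan8 ranged from 3.35 to 4.33. The number of the 9 tetraspanins called, 4 as reported, was 2 to 5 with 1 library left out. Of all tested genes, 720 were called as reported, 441 with a filter at 5 FPKM, and 237 to 1126 with 1 library left out. Without distal library 2 it was 237, distal library 3 280, proximal library 2 263, proximal library 3 338, distal library 1 1126 and proximal library 1 1103. Without both libraries numbered 1 it was 2209, of which 705 were among the 720. Deviations of same-numbered libraries had r = 0.38, 0.04 and 0.29 across genes for replicates 1, 2 and 3. Whether the replicate numbers pair the samples was not tested. With a replicate block, 1612 genes and 5 of the tetraspanin transcripts were called, and Tspan3 (adjusted p = 0.00955), Itga3 (0.0360), Itga6 (0.0270), Epcam (0.0360) and Upk1b (0.0362) passed. Trp63 passed as lower in proximal cells under that block (0.0214). With 1 library left out, 1 to 2 of those transcripts were called, against 3 as reported.

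Genes that passed no test changed sign as follows, and the cause was not tested. With 1 library left out the log2 fold change ranged from -0.32 to 0.18 for Cd151, -0.021 to 0.17 for Cd63, -0.092 to 0.17 for Tspan4, -0.15 to 0.12 for Tspan7, -0.18 to 0.020 for Tspan17, -0.0040 to 0.15 for Itgb1, -0.020 to 0.055 for Sdcbp and -0.062 to 0.24 for Krt18, a luminal keratin. Without both libraries numbered 1 it was 0.0023 for Cd151, and with quantile scaling 0.0058 for Tspan7. Depth limits Tspan8 in distal libraries, at about 25 to 54 fragments each.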
